A study of Mus musculus with 6 samples.

Results

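DNA damage signalling and repair genes were measured in the small intestine of mice in a group labelled model and a group labelled control. The 49 genes were chosen by name for their roles in sensing or repairing DNA lesions. All 49 were listed among the 33017 genes of the count table, and 48 had enough counts to be tested among 15904 tested genes. Rnf8, a ubiquitin ligase that marks chromatin at breaks, was listed at 0 in all 6 libraries, which is not read as absence of its transcript. Messenger RNA was selected on poly-T beads from frozen tissue and sequenced in 3 libraries per group, with totals between 35007515 and 45285564 counts. The title of the series names simulated microgravity, radiation and the bioactive compounds CB001, and the design text speaks of a joint effect of both factors in 2 groups. The word model is all that the labels give for the exposure of the tested tissue, and the word control is all they give for the other group. The compounds appear in the title and in no library's label. Genotype, strain, age, radiation dose and duration of the exposure are not stated in the labels. Nor do the labels tie each library to an animal of its own, so every p-value below refers to variation among these 6 libraries, part of which may be technical.

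Cells answer broken or modified DNA with a signalling cascade and a set of repair routes. The kinases ATM and ATR detect broken ends and stalled forks and pass the signal to CHEK1 and CHEK2, while histone H2AX, MDC1 and TP53BP1 gather repair proteins at the break. Breaks are rejoined directly by non-homologous end joining or copied from a sister chromatid by homologous recombination. Damaged bases, bulky adducts, mismatches and crosslinks each have their own repair pathway. In the small intestine the crypts hold rapidly dividing stem and progenitor cells that are sensitive to ionising radiation, and many recombination and crosslink genes are transcribed mainly while cells replicate their DNA.

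Levels are given as CPM, the usual read counts scaled to library size, here with TMM factors (trimmed mean of M-values, which correct for differences in RNA composition). Log2 fold changes are model over control, with their standard error (SE). The epithelial marker Vil1 measured 2092, 2096 and 2128 CPM in the model libraries and 2389, 1991 and 1810.2 CPM in the control libraries, whereas Fabp2, another enterocyte marker, was listed at 0 throughout. Other epithelial markers were less even. Alpi had 276 CPM in control 3, against 2981 to 7417 CPM in the other 5 libraries. Muc2 had 6727 CPM in control 3, against 1163 to 2284 CPM in the other 5 libraries. Lyz1 ran from 10.8 CPM in control 2 to 3744 CPM in control 3. Summed over the 10 epithelial markers, levels were 12431 to 16379 CPM in model and 12949 to 16059 CPM in control libraries. The libraries also differed in markers of other tissues. Of 12 B cell markers 11 were listed, and their summed level was 16.3 to 216.8 CPM in the model group and 17.8 to 358.5 CPM in the control group, with the high values in model 3 and control 3. The 8 pancreatic acinar markers were highest in model 3, at a summed 6229 CPM, against 27.6 and 9.28 CPM in model 1 and model 2 and 4.94 to 6.84 CPM in the control libraries. The 8 smooth muscle markers had a summed level of 975 to 1352 CPM in the model group and 1303 to 2216 CPM in the control group. The TMM factor was 0.826 in model 1, 0.974 to 1.01 in the other model libraries and 0.996 to 1.17 in the control libraries, and repair genes took 0.0503% of the counts in model 1 against 0.0741 to 0.0966% in the other 5 libraries. In bulk tissue, fewer cells of a type and less RNA per cell cannot be told apart.

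None of the repair genes differed between model and control tissue at the threshold used. edgeR's quasi-likelihood test gave 0 of 48 members at a Benjamini-Hochberg adjusted p under 0.05, where 0% of all tested genes passed, and the smallest adjusted p of a member was 0.851. DESeq2's Wald test and limma-voom, run as alternatives, also called 0 members, and DESeq2 called 25 of all tested genes. At an unadjusted p under 0.05 edgeR gave 1 member, Rad51b, which was lower in model tissue, where 4.81% of all tested genes reached that p (2.99% lower and 1.82% higher in model tissue). By sign, 31 members were lower in the model group and 17 were higher, and the members' median was -0.12 on the log2 scale. Over all tested genes 51.8% were lower, with a median of -0.018. The standard errors of single members lay between 0.18 and 0.64 on the log2 scale, so small differences were not detectable with these libraries. Without control 1 or without control 3, no member had an unadjusted p under 0.05.

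The size of the members' median moved with model 1, and the count by sign moved less. This library held the lowest of the 6 values for 27 of 48 members (56.25%), against 30.8% of all tested genes. Without it, 28 members were lower and 20 were higher, and the median log2 fold change was -0.031, against -0.0179 over all tested genes in the same fit. The count was also 28 lower without control 1, with a median of -0.062. The sign count also moved with the scaling of the libraries. Scaling by library size alone shifted the median of all tested genes by -0.19 and put 47 of 48 members lower (97.9%), while upper quartile scaling put 81.25% of them lower. Relative to all tested genes the members' median was at -0.0995 with TMM, -0.093 with library size alone and -0.0997 with upper quartile scaling.

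**Figure D1:**
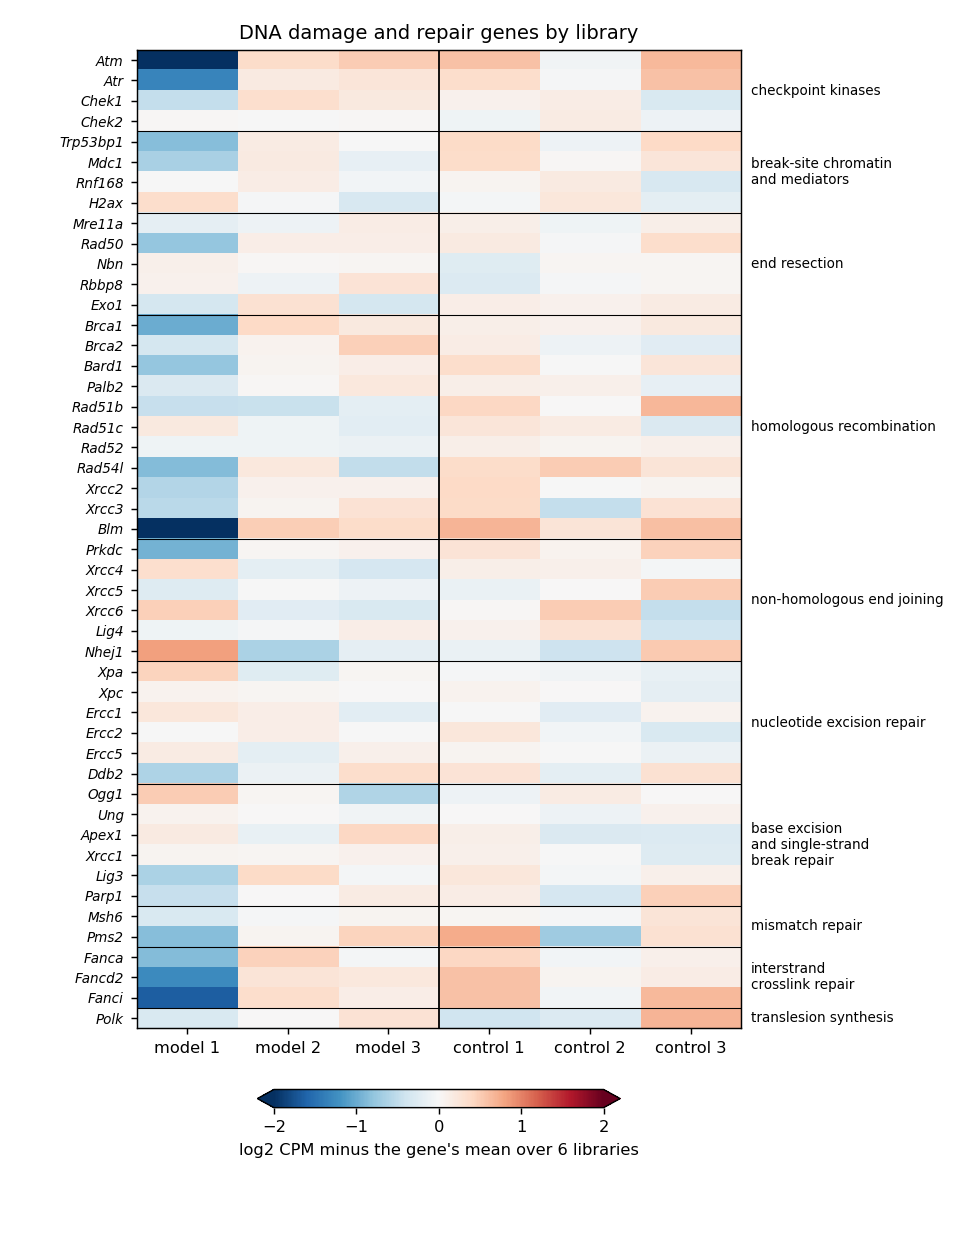
Log2 CPM of 48 repair genes in 6 libraries (columns), each as the difference from the gene's own mean over the libraries, with genes (rows) ordered by role. Blue is below and red above the mean, and colours end at -2 and 2. Model 1 is blue for most long genes such as Atm, Atr and Prkdc, while model 2 and model 3 resemble the control libraries.

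Among the checkpoint kinases, the long transcripts of the initiating kinases stood apart from the short one of Chek2. Atm, the kinase that answers double-ended breaks, measured 5.50, 29.4 and 32.7 CPM in model 1, 2 and 3 and 34.5, 21.9 and 35.8 CPM in control 1, 2 and 3. Model 1 lay far below the other 5 libraries, whose groups overlapped. Its log2 fold change was -0.45 (SE 0.58) with all libraries and 0.013 without model 1. Atr, which responds to stalled replication forks, showed a similar gap, at 6.54, 18.7 and 19.4 CPM in the model libraries and 21.2, 16.2 and 24.7 CPM in the control libraries. Chek2, a kinase activated by ATM, was level across all of them, at 18.8, 18.3 and 18.7 CPM in the model libraries and 17.5, 20.8 and 17.3 CPM in the control libraries (log2 fold change 0.0090, SE 0.19). Chek1, the effector of ATR, had 5.82, 10.3 and 9.23 CPM in the model libraries and 8.59, 8.93 and 6.53 CPM in the control libraries, again with overlapping groups.

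Of the break-site factors, H2ax had the highest level per length of all members, at 29.7 CPM per kilobase in model and 29.3 CPM per kilobase in control tissue. H2ax, the histone variant that is phosphorylated around breaks, measured 51.5, 39.7 and 32.1 CPM in the model libraries and 39.3, 47.0 and 35.1 CPM in the control libraries, with a log2 fold change of 0.020 (SE 0.23). The groups overlapped, and here model 1 held the highest value. The 2 large scaffold genes went the other way in that library. Trp53bp1, whose product steers breaks toward end joining, had 12.6 CPM in model 1 against 22.7 to 25.5 CPM in the other model libraries and 21.2 to 30.1 CPM in the control libraries. Mdc1, the adaptor that binds phosphorylated H2AX, had 23.2, 41.5 and 32.5 CPM in the model libraries and 47.1, 37.3 and 43.2 CPM in the control libraries. Rnf168, a ubiquitin ligase acting at breaks, lay between 27.5 and 31.6 CPM in model and between 22.8 and 32.4 CPM in control tissue.

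Resection of broken ends is carried out by the MRE11, RAD50 and NBN complex with RBBP8 and EXO1. Nbn, the subunit that recruits ATM, measured 20.5, 19.3 and 19.6 CPM in the model libraries and 16.1, 19.6 and 19.6 CPM in the control libraries (log2 fold change 0.10, SE 0.19). Rbbp8, which starts resection, was at 26.7, 23.2 and 30.4 CPM in the model libraries and 20.6, 24.8 and 25.7 CPM in the control libraries, a log2 fold change of 0.17 (SE 0.20) with overlapping groups. Rad50, the ATPase of the complex, was at 17.4 CPM in model 1 and at 32.7 to 32.8 CPM in the other model libraries, against 29.3 to 37.8 CPM in the control libraries. Mre11a, the nuclease, had 17.2, 18.01 and 21.4 CPM in the model libraries and 21.0, 18.3 and 20.9 CPM in the control libraries. Exo1, the long-range exonuclease, was lower in model 1 and model 3, with 6.96 and 6.98 CPM, than in model 2, with 11.1 CPM, or in any control library, with 9.46 to 10.02 CPM.

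Homologous recombination was the largest role group. Of its 11 genes 10 had lower values in the model group, with a median log2 fold change of -0.19, and without model 1 the count was 7 of 11 and the median -0.087. Its members also included the only 3 whose model and control libraries did not overlap, Rad51b, Rad54l and Rad52, all lower in model tissue. That is 3 of 48 members, or 6.25%, and the same was true of 11.1% of all tested genes in either direction, 6.33% lower and 4.73% higher. With single libraries left out, fewer libraries make separation easier, and the counts stand beside the share of all tested genes in the same fit. The count was 5 without model 1 (all genes 19.2%), 10 without model 2 (22.8%) and 6 without model 3 (20.3%). It was 8 without control 1 (21.2%), 14 without control 2 (27.2%) and 3 without control 3 (16.4%).

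Rad51b, a gene of homologous recombination, measured 7.65, 7.76 and 9.26 CPM in the model libraries and 14.1, 10.6 and 16.8 CPM in the control libraries. All 3 model values lay below the lowest control value. The log2 fold change was -0.75 (SE 0.25), with an unadjusted p of 0.0192 and an adjusted p of 0.851 in edgeR, and it lay between -0.89 and -0.57 when single libraries were left out. Rad51b was similar in model 1 and the other model libraries. Its highest value in each group was in model 3 and control 3, the libraries with the most B cell transcripts, and the part of those transcripts in the result was not tested. Without control 3 the fold change was -0.57 and the unadjusted p 0.0706.

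Rad54l, a motor protein that drives strand exchange in dividing cells, measured 5.99, 12.7 and 7.78 CPM in the model libraries and 14.2, 15.5 and 13.1 CPM in the control libraries. The 3 model values lay below the controls, with model 2 close to control 3. The log2 fold change was -0.69 (SE 0.31, edgeR adjusted p 0.851), and it was -0.48 without model 1 and -1.05 without model 2. Rad52, a strand-annealing protein, had the tightest values, at 7.03, 7.01 and 6.84 CPM in the model libraries and 8.07, 7.75 and 8.003 CPM in the control libraries. Its log2 fold change was only -0.19 (SE 0.22), within the error of the fit. In the annotation, 15.4% of the exonic bases of Rad54l lie under exons of Lrrc41 on the other strand, and the strand setting of the counting is not given in the sources used here.

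**Figure D2:**
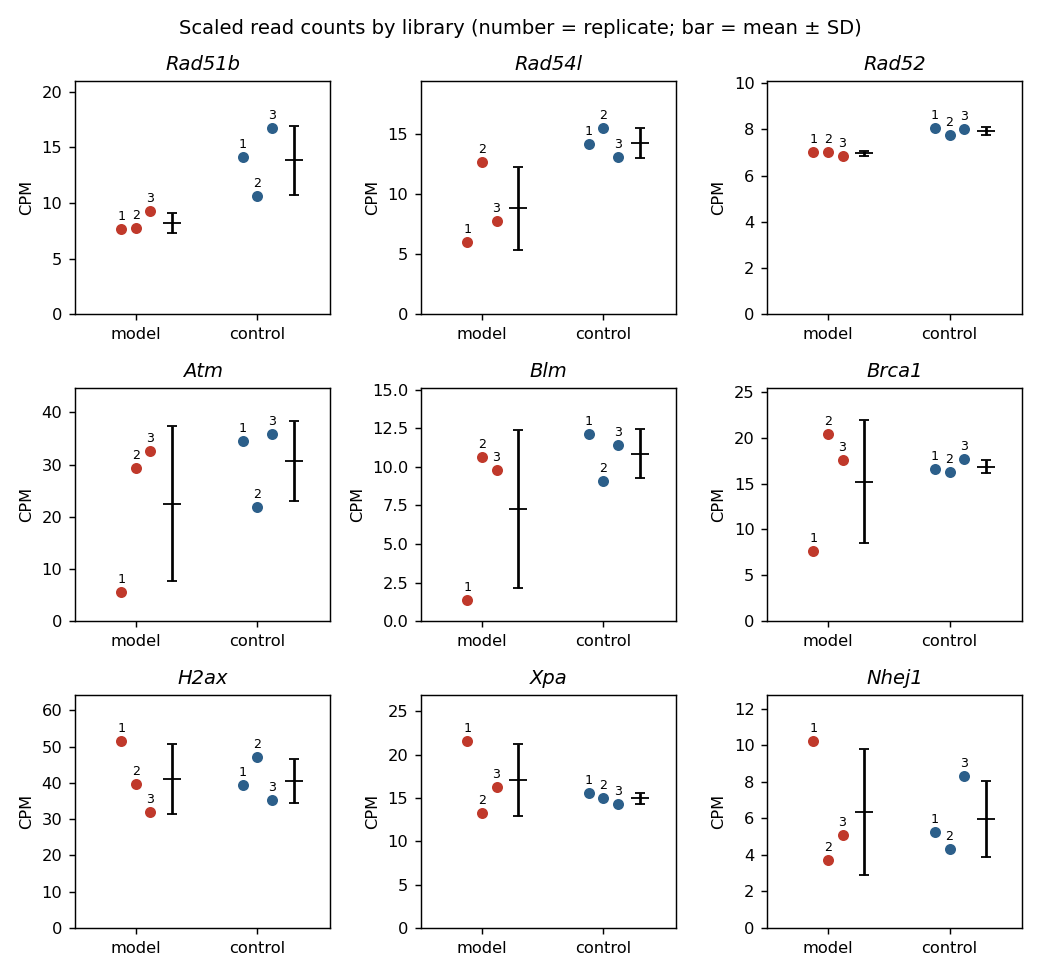
CPM of 9 repair genes in each library, with the replicate number above each point and the mean ± SD (n = 3) beside each group. The 3 model libraries lie below all control libraries for Rad51b, Rad54l and Rad52, while for Atm, Blm and Brca1 model 1 lies far below the other 5 libraries and for H2ax, Xpa and Nhej1 it lies above them.

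The promoters of these 3 genes are shown because their libraries did not overlap. Each is the 250 bases before the most upstream RefSeq start (build GRCm38.p6), written 5′ to 3′ on the gene's strand. Capitals mark matches to an E2F core (TTCCCGC or one of its variants TTCGCGC and also TTGCCGC and finally TTGGCGC), the element read by the E2F factors of S phase genes, or to a CCAAT box (CCAAT), in both cases on either strand. The windows lie on chr12:79297032-79297281 (+) for Rad51b, chr4:116123691-116123940 (-) for Rad54l and chr6:119902448-119902697 (+) for Rad52.
Rad51b: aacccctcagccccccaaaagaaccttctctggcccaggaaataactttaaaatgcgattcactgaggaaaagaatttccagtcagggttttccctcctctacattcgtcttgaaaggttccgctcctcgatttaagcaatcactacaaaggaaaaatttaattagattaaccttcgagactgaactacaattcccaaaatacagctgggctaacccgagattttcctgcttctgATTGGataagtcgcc
Rad54l: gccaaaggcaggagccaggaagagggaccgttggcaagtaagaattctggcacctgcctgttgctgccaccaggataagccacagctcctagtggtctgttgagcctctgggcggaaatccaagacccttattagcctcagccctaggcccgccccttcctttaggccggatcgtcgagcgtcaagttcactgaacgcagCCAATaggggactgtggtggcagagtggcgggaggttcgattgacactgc
Rad52: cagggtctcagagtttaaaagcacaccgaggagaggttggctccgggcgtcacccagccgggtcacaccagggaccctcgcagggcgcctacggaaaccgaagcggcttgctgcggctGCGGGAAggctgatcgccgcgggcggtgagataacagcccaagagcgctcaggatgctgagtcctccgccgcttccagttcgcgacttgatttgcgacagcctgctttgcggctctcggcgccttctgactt
Rad52 held 1 E2F core, whereas Rad51b and Rad54l each held 1 CCAAT box and no E2F core in this window. RefSeq promoters were matched for 39 of the 49 members. An E2F core was found in 16 of them (41.0%), against 13% of the 12133 tested genes with a promoter, and a CCAAT box in 20 (51.3%), against 35.6%. These are descriptions of letters and not of binding.

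Of the other 8 recombination genes 7 had their lowest model value in model 1, Rad51c being the exception. Brca1, which promotes recombination over end joining, measured 7.68, 20.3 and 17.6 CPM in the model libraries and 16.6, 16.3 and 17.7 CPM in the control libraries. Blm, the helicase that unwinds recombination intermediates, measured 1.38, 10.7 and 9.80 CPM in the model libraries and 12.1, 9.06 and 11.4 CPM in the control libraries. Its raw counts were 40 in model 1 and between 339 and 580 in the other 5 libraries. Bard1, the partner of BRCA1, was likewise lowest in model 1, at 5.57 CPM against 9.91 and 10.5 CPM in the other model libraries and 9.54 to 12.2 CPM in the control libraries. Brca2, a recombination mediator with a transcript of 10.6 kb, was the only recombination gene with a positive value, at 0.15 on the log2 scale (SE 0.27). It measured 9.59, 12.9 and 17.1 CPM in the model libraries and 13.6, 11.4 and 10.5 CPM in the control libraries. Palb2, Rad51c, Xrcc2 and Xrcc3, which act in the same pathway, had overlapping groups and log2 fold changes between -0.27 and -0.030.

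For non-homologous end joining, 5 of 6 genes had lower values in the model group, with a median log2 fold change of -0.072, and none was separated between groups. Without model 1 again 5 of 6 were lower, and the median was -0.27, farther from 0. Prkdc, the DNA-dependent protein kinase and the longest member at 12.6 kb, measured 13.7, 27.2 and 28.3 CPM in the model libraries and 32.0, 28.0 and 36.7 CPM in the control libraries. Model 1 was lowest and model 3 passed control 2 by less than 1 CPM, and the log2 fold change was -0.48 (SE 0.30). It was -0.22 both without model 1 and after each library's dependence on transcript length was removed. Nhej1, a stabilising factor of the ligase complex and the shortest member at 1.05 kb, behaved in the opposite way, at 10.2, 3.70 and 5.10 CPM in the model libraries and 5.26, 4.33 and 8.29 CPM in the control libraries. Its log2 fold change was 0.086 (SE 0.45) and -0.44 without model 1. The Ku subunits that cap broken ends were at 9.62 to 11.4 CPM (Xrcc5) and 6.15 to 10.7 CPM (Xrcc6) in model tissue, against 10.5 to 16.4 CPM (Xrcc5) and 5.44 to 10.9 CPM (Xrcc6) in control tissue. Lig4 and its partner Xrcc4, which seal the ends, gave a log2 fold change of -0.0085 (SE 0.23) for Lig4 and of -0.0998 (SE 0.28) for Xrcc4. Without model 1 Xrcc4 was at -0.33, and Xrcc6 was at -0.34, against -0.044 for Xrcc6 with all libraries.

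Excision repair genes, most of them of short or medium length, were near level. Of the 6 nucleotide excision genes 5 had higher values in model tissue (median 0.070 on the log2 scale), and 3 of 6 did without model 1. Xpa, which verifies the lesion, measured 21.5, 13.3 and 16.3 CPM in the model libraries and 15.5, 14.97 and 14.3 CPM in the control libraries, a log2 fold change of 0.19 (SE 0.24) that was -0.017 without model 1. Xpc, the lesion sensor, was steady at 20.2 to 21.2 CPM in model and 17.8 to 21.1 CPM in control tissue. Ercc1, the nuclease gene Ercc5 and the helicase gene Ercc2 had log2 fold changes between 0.058 and 0.11, all with overlapping groups. The value of Ercc2 is uncertain, since 42.7% of its exonic bases lie under exons of other genes in the annotation. Ddb2, a sensor of ultraviolet lesions, was the lower one, at 4.85, 6.89 and 9.52 CPM in the model libraries and 9.01, 6.55 and 9.29 CPM in the control libraries. For Ddb2, 23.8% of the exonic bases lie under exons of Acp2 on the other strand.

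Among base excision and single-strand break genes, Parp1 had the highest level per length at 12.9 CPM per kilobase in model and 14.9 CPM per kilobase in control tissue. Parp1, the poly-ADP-ribose polymerase that detects nicks, measured 38.3, 52.9 and 58.7 CPM in the model libraries and 58.0, 41.8 and 72.9 CPM in the control libraries (log2 fold change -0.20, SE 0.27). Apex1, the abasic-site endonuclease, had the smallest p of the members with higher values, with a log2 fold change of 0.30 (SE 0.29) and overlapping groups at 5.54, 4.42 and 6.50 CPM in the model libraries and 5.28, 4.01 and 4.04 CPM in the control libraries. This value is uncertain, since 61.7% of its exonic bases lie under exons of Pip4p1 on the other strand in the annotation. Ung, which removes uracil from DNA, was level at 9.20 to 10.1 CPM in model and 8.95 to 10.3 CPM in control tissue, and the scaffold gene Xrcc1 at 28.3 to 29.1 CPM in model and 23.1 to 29.4 CPM in control tissue. Ogg1, the glycosylase for oxidised guanine, ran from 4.25 to 9.17 CPM in model and from 6.01 to 7.24 CPM in control tissue. Lig3, the ligase that works with XRCC1, was lowest in model 1, at 15.4 CPM, against 23.3 to 31.4 CPM in the other model libraries and 23.3 to 28.0 CPM in the control libraries, and 25.1% of its exonic bases lie under another gene.

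The crosslink repair genes of the Fanconi anaemia pathway were among those with the widest gap between model 1 and the rest. Fanci measured 1.66, 6.83 and 5.87 CPM in the model libraries and 8.01, 5.13 and 8.38 CPM in the control libraries. Its partner Fancd2, which is loaded on DNA with it, measured 3.39, 9.93 and 9.66 CPM in the model libraries and 12.5, 8.66 and 9.19 CPM in the control libraries. Fanca, a subunit of the core complex that modifies both, measured 8.48, 21.3 and 15.2 CPM in the model libraries and 20.7, 14.9 and 16.7 CPM in the control libraries. The median log2 fold change of these 3 genes was -0.40 with all libraries and -0.049 without model 1. Of the mismatch genes, Msh6, which recognises base mismatches, measured 28.2, 34.4 and 36.1 CPM in the model libraries and 36.0, 34.2 and 41.9 CPM in the control libraries (log2 fold change -0.19, SE 0.19). Pms2, an endonuclease subunit, had the lowest level per length of the tested members, at 0.64 CPM per kilobase in model and 0.76 CPM per kilobase in control tissue. Polk, a polymerase that copies past lesions, measured 7.96, 9.93 and 12.1 CPM in the model libraries and 7.51, 8.20 and 15.9 CPM in the control libraries. Its log2 fold change of -0.075 (SE 0.35) was 0.36 without control 3.

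Transcript length ordered the deviations of model 1. Length was taken as the median of a gene's coding transcripts in the mouse GENCODE annotation, and the deviation is a library's log2 CPM minus the mean of the other 2 libraries of its group. For the 16 members over 4 kb the median deviation of model 1 was -0.89, and all 16 lay below the other model libraries. For the 20 members of 2 to 4 kb it was -0.30, with 13 below, and for the 12 members under 2 kb it was 0.18, with 3 below. All tested genes of the same classes had medians of -0.47, -0.034 and 0.40, so the members followed the same order but lay lower in each class. Spearman's rho between length and the deviation of model 1 was -0.68 over 48 members and -0.40 over 15607 tested genes with a length. These points share 1 library, and members also differ in base composition. Between GC content and the same deviation rho was 0.35 over members and 0.065 over the tested genes with a length. Length on the log2 scale and GC content correlated at -0.46 (Pearson) over members.

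**Figure D3:**
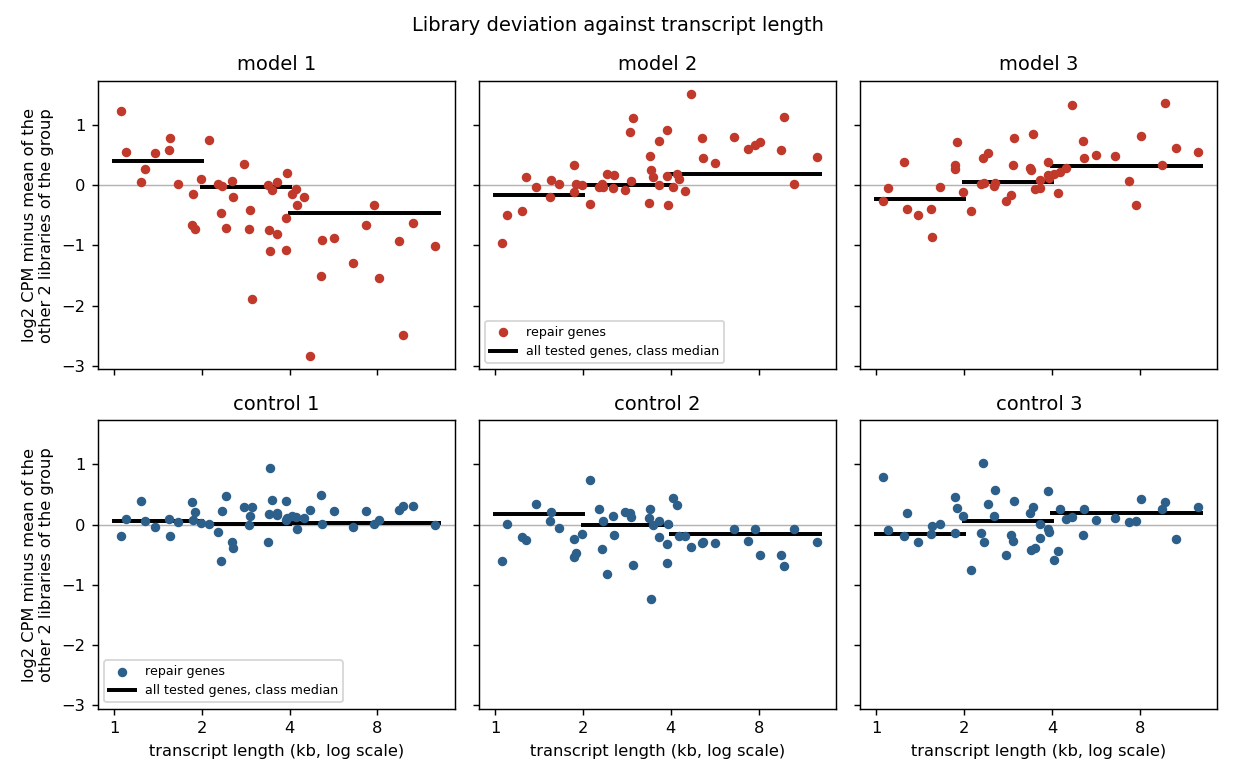
Deviation of each library from the mean of the other 2 libraries of its group (log2 CPM) against transcript length in kilobases (log scale), for 48 repair genes (points) and the medians of all tested genes under 2 kb, from 2 to 4 kb and over 4 kb (black lines). In model 1 the points fall with length to below -2, and model 2 and model 3 mirror it since model 1 is in their comparison, while the control libraries show no slope of that size.

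The control libraries showed weaker length orders over the members. Spearman's rho over the same 48 genes was 0.24 in control 1, -0.22 in control 2 and 0.087 in control 3. Over all tested genes with a length it was -0.052 in control 1, -0.21 in control 2 and 0.21 in control 3. A smoothed trend over all tested genes was taken of each library's difference from the mean over all 6 libraries. It ran from 0.51 at 0.5 kb to -0.74 at 12 kb in model 1. In control 3 it ran the opposite way, from -0.31 to 0.40. Model 1 is part of that mean, and its share in the slope of control 3 was not tested. The median deviations of the members over 4 kb, against the rest of the group, were 0.13, -0.28 and 0.10 in control 1, 2 and 3. In model 2 and model 3 rho was 0.59 and 0.51, but model 1 is part of the value each was set against. The largest gaps in model 1 were those of Blm, at -2.84, Atm, at -2.48, and Fanci, at -1.90, and the highest was that of Nhej1, at 1.22. By median length Fanci has a transcript of 2.97 kb, against 4.68 kb for Blm and 9.80 kb for Atm. The longest coding transcript of Fanci has 4645 bases, near the 4770 bases of Blm.

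Divided by cell cycle phase, the members differed most at 2 to 4 kb, a comparison that rests on few genes and on the median length. Fanci and Fanca are among the S and G2 phase members of that class. Their longest transcripts have 4645 and 4485 bases, which would place both over 4 kb. The 14 members known to be transcribed mainly in S and G2 phase, such as Brca1, Rad54l, Fancd2 and Chek1, had a median deviation of -0.91 in model 1 at 2 to 4 kb (4 genes), against -0.041 for the other members of that length (16 genes). Over 4 kb the medians were alike, at -0.87 for 7 S and G2 phase members and -0.91 for 9 others. Under 2 kb they were 0.10 for 3 S and G2 phase members and 0.26 for 9 others. Single markers of dividing cells went both ways in the same library, while their median lay below that of all tested genes in each length class. Relative to the other model libraries, model 1 was lower for 3 of 4 markers under 2 kb, 8 of 14 of 2 to 4 kb and 2 of 2 over 4 kb. The marker medians of these classes were -0.24, -0.50 and -0.87, against 0.40, -0.034 and -0.47 for all tested genes. Mki67, a nuclear antigen of cycling cells with a long transcript, measured 122, 255 and 212 CPM in the model libraries and 252, 213 and 270 CPM in the control libraries, and Top2a, the topoisomerase of dividing cells and the other long one, measured 103, 213 and 152 CPM in the model libraries and 226, 201 and 229 CPM in the control libraries. Pcna, the replication clamp, was instead highest in model 1, at 103.3, 50.6 and 61.6 CPM in the model libraries and 55.7, 70.2 and 46.1 CPM in the control libraries. Rrm2, a subunit of ribonucleotide reductase, was also highest there, at 56.0 CPM against 40.2 and 49.7 CPM in the other model libraries and 29.8 to 36.8 CPM in the control libraries. The summed level of 20 proliferation markers was 808 to 1159 CPM in the model group, lowest in model 1, and 1074 to 1145 CPM in the control group. The part of proliferation, of transcript length or of other properties of model 1 in the low values was not tested. With all libraries 10 of the 14 S and G2 phase members had lower values in model tissue (median -0.22 on the log2 scale), and without model 1 the count was again 10 and the median -0.083.

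**Figure D4:**
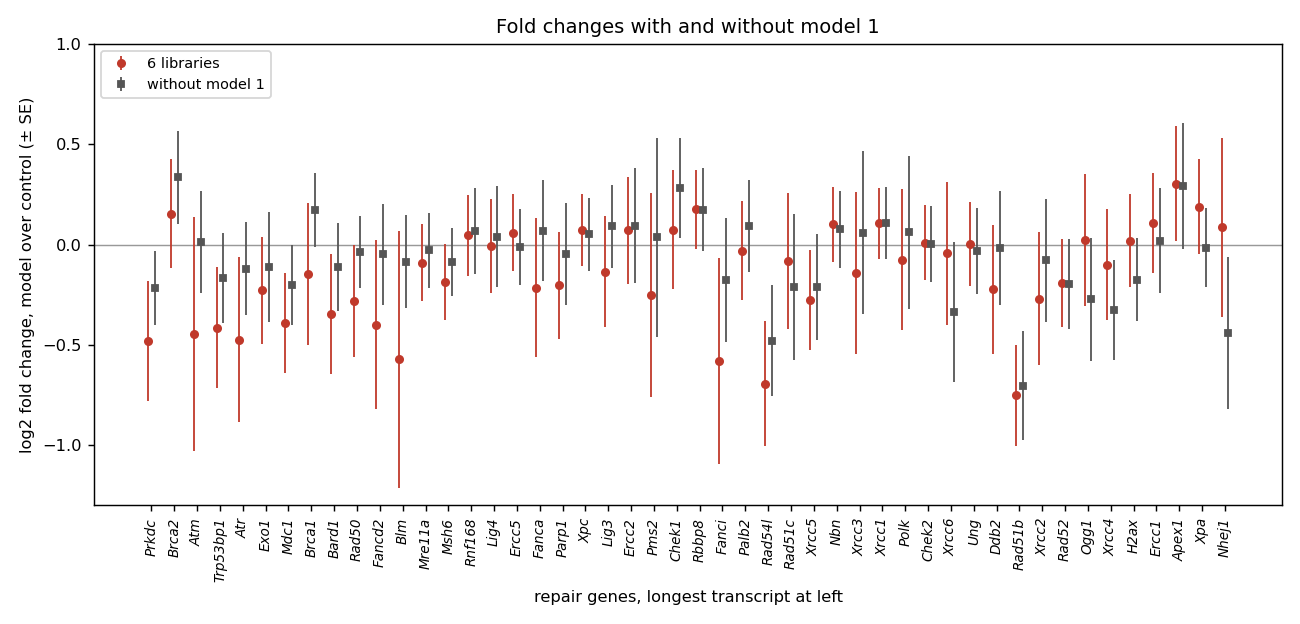
Log2 fold change of model over control (± SE) for 48 repair genes, ordered from the longest transcript at left to the shortest at right, from all 6 libraries (circles) and without model 1 (squares). Without model 1 most long genes at left move up toward 0 and several short genes at right move down, while Rad51b stays near -0.70.

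The fold changes followed the same pattern by length. Of 16 members over 4 kb 14 had lower values in the model group, with a median log2 fold change of -0.31, and without model 1 the count was 11 and the median -0.068. Of 12 members under 2 kb 5 had lower values, with a median of 0.012, and without model 1 the count was 10 and the median -0.13. When the length dependence of each library was taken out of the fit, the median of the 48 members was -0.10, with 35 of them lower, and 0 were called. In that fit 5 of 48 members did not overlap between groups, where 12% of all tested genes did not. Single members moved by differing amounts. Prkdc went from -0.48 to -0.22 and Atm from -0.45 to -0.33. Blm went from -0.57 to -0.53, while Fanci stayed at -0.58 and Rad54l at -0.69.

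None of the members listed as p53 targets passed the test, and most other targets of p53 had higher values in the model group. Xpc, Ddb2 and Polk, the members so listed, had log2 fold changes between -0.22 and 0.070. Whether p53 induces each of them in mouse tissue was not tested, least of all for Ddb2, the lowest. Of 24 other p53 targets 21 had higher values in the model group, with a median log2 fold change of 0.28, and without model 1 the count was 18 and the median 0.18. Mdm2, the ubiquitin ligase that restrains p53, measured 99.3, 97.5 and 170.4 CPM in the model libraries and 66.0, 71.9 and 56.9 CPM in the control libraries (log2 fold change 0.92, SE 0.27). Cdkn1a, the cell cycle inhibitor, measured 362, 149 and 272 CPM in the model libraries and 164, 205 and 128 CPM in the control libraries. Its groups overlapped, and its log2 fold change was 0.65 (SE 0.35). With single libraries left out Cdkn1a ran from 0.34, without model 1, to 0.94, without model 2, and Mdm2 from 0.60, without model 3, to 1.06, without model 2. None of these 24 genes passed the test over all genes. The list was chosen with earlier results of these data known, and its direction is no independent evidence.

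The rest of the repair pathway gave 0 calls as well. Of 90 further repair genes 89 were listed and 88 tested, and 57 of these were lower and 31 higher in the model group, with a median log2 fold change of -0.084. Without model 1 the counts were 45 lower and 43 higher and the median -0.012. A total of 8 of the 88 genes, 2 higher and 6 lower, did not overlap between groups, against the 11.1% given above for all tested genes. Both genes that also had an unadjusted p under 0.05 in edgeR were short. Tdp2, a phosphodiesterase that frees DNA ends from stalled topoisomerase, measured 127, 109 and 125 CPM in the model libraries and 68.4, 83.6 and 38.4 CPM in the control libraries. All 3 model values lay above the highest control value, and the log2 fold change was 0.92 (SE 0.29, edgeR adjusted p 0.851). Fancl, the ubiquitin ligase subunit of the Fanconi core complex, measured 4.15, 4.33 and 3.88 CPM in the model libraries and 6.09, 6.31 and 6.15 CPM in the control libraries, a log2 fold change of -0.58 (SE 0.25, edgeR adjusted p 0.851). Model 1 was not apart from the other model libraries for either gene.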

How the data were processed

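The authors deposited 1 table of raw counts, with a whole number for each gene in each library. The submitters' processing notes name FastQC, Trimmomatic, STAR, featureCounts and build GRCm39. Versions, gene annotation and strandedness of the counting are not given in the sources used. Values of overlapping genes (4 members with over 20% of exonic bases under another gene) are uncertain. Each of the 6 columns was matched by library name, and 0 were left out. No pair of libraries was a duplicate (chi-square per degree of freedom at least 111).

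Genes were kept by filterByExpr, scaled by TMM and tested with edgeR 4.0.16 (R 4.3.3) by the quasi-likelihood test with robust dispersion, group being the only term, adjusted by Benjamini-Hochberg over all tested genes. SE was derived from the fold change and F (size of the log2 fold change over root F). Lengths and GC came from GENCODE vM21 (GRCm38), matched by symbol or synonym for 98.1% of tested genes, over its basic transcript set. That set was chosen after the full set gave partial transcripts for some members. No coordinates of the files' build are printed. The test code was checked on simulated counts.

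The members and lists were chosen with earlier results of these data known. All members could be named. Every library is given for those that did not overlap, the 3 smallest p in each direction, the highest level per length in each role, and the 3 longest and shortest. Blm, Fanci, Fancd2 and others in full were chosen after their values were seen. Other repair genes were named when unadjusted p was under 0.05 and the groups did not overlap. Alternatives were other scalings, DESeq2 1.42.0, limma-voom (limma 3.58.1), other filters on low counts, a non-robust dispersion, a replicate block, removal of length or GC trends, and left-out libraries.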

Additional observations from a re-analysis of the deposited data

How the results depend on the processing

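The 19 alternatives each gave 0 called members and 0 called other repair genes, and the smallest adjusted p of a member lay between 0.505 (DESeq2) and 0.9999. The gap between long and short members in model 1 was -1.07 on the log2 scale and lay between -1.44 and -0.76 with other lengths, another boundary or scaling by library size alone. The number of members with an unadjusted p under 0.05 was 1 as reported, 2 with upper quartile scaling, library size alone, limma-voom, the replicate block, the length trend removed, or both of these, and 0 without both model 1 and control 3. With single libraries left out it ran from 0 to 1. The number that did not overlap was 5 with library size alone (12.8% of all tested genes), 5 with the length trend removed and with the block and the trend (12% of all tested genes in each), 10 of 48 without both model 1 and control 3 (33.8% of all tested genes), and 3 to 14 with single libraries left out, where fewer libraries separate more easily. Library size alone put 47 members lower, with a median log2 fold change of -0.30.

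Some log2 fold changes changed sign, and the cause was not tested. The genes named here are only part of the members that did so. With library size alone 1 member was higher in the model group, against 17 as reported. For the genes named here the values as reported ran from -0.45 for Atm to 0.19 for Xpa. Upper quartile scaling gave log2 fold changes of -0.065 for Chek2, -0.055 for H2ax and -0.013 for Nhej1. Library size alone gave -0.028 for Rbbp8, -0.031 for Xpa, -0.18 for Chek2, -0.19 for H2ax, -0.10 for Nbn, -0.19 for Nhej1 and -0.020 for Brca2. limma-voom gave -0.047 for Nhej1 and 0.0019 for Polk, and a minimum of 5 CPM gave -0.020 for Chek2 and -0.0084 for H2ax. With the length trend removed Chek2 was at -0.019, H2ax at -0.10 and Nhej1 at -0.17, and with the replicate block added they were at -0.015, -0.11 and -0.14. Removing the GC trend put H2ax at -0.038. Without both model 1 and control 3 the values were -0.049 for Xpa, -0.048 for Chek2, -0.27 for H2ax, -0.13 for Nhej1, 0.16 for Parp1, 0.00099 for Msh6, 0.037 for Fanca, 0.48 for Polk and 0.13 for Atm. With single libraries left out the ranges were -0.017 to 0.35 for Xpa, -0.024 to 0.12 for Chek2, -0.18 to 0.17 for H2ax, -0.44 to 0.42 for Nhej1, -0.37 to 0.017 for Parp1, -0.55 to 0.069 for Fanca, -0.26 to 0.36 for Polk, -0.81 to 0.013 for Atm and -0.073 to 0.34 for Brca2.

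The labels do not say whether the replicate numbers pair the libraries. Deviations of same-numbered libraries correlated at -0.15, -0.27 and 0.31. Model 1 correlated best with control 2, and model 3 with its same-numbered control. So few correlations cannot decide whether the libraries were paired. The replicate block gave 537 genes with an unadjusted p under 0.05, against 765, and a member median of -0.13. Depth limits single members: their counts per library ran from 35 to 3068.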
